A study of Mus musculus with 4 samples.

Results

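Gpr34 Hpgd macrophages were taken as the BM macrophages in which the messenger RNA of Gpr34 was caught together with that of a partner gene, while MHC class II messages were low. A cell was a member when it held at least 1 UMI (unique molecular identifier, a tag that marks 1 captured RNA molecule) of Gpr34, at least 1 UMI of Hpgd, Fcrls or Clec10a, and fewer than 10 summed UMIs of Cd74, H2-Aa, H2-Ab1 and H2-Eb1. This rule gave 2335 members among 36794 cells of 4 libraries. The members numbered 1169 of 8280 cells in the non-efferocytic library of Exp. 1, 234 of 6695 in the efferocytic library of Exp. 1, 829 of 13411 in the non-efferocytic library of Exp. 2 and 103 of 8408 in the efferocytic library of Exp. 2. Wherever 4 values are given together, they follow this order. Because the 8 genes of the rule chose the cells, their levels are given as a description without a test, and they were left out of every count of changed genes.

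The study asked how BM macrophages change after they engulf apoptotic cancer cells (efferocytosis). Bone marrow came from male C57BL/6J mice. They were 4 to 6 weeks old by the general methods and 4 weeks old by the legend of the single-cell figure. The marrow was cultured for 4 days with M-CSF. The resulting BM macrophages were kept for 16 to 18 h with UV-killed, CFSE-labelled RM1 cells, a mouse prostate cancer line. F4/80+CFSE+ cells were sorted as efferocytic and cells positive for F4/80 alone as non-efferocytic, with 1 library of each kind in both experiments. All cells were wild type. The labels place the sort after this co-culture, whereas elsewhere the non-efferocytic cells are also described as macrophages alone, so whether they had met RM1 cells is not settled here. The methods give a minimum of 3 mice per group for BM macrophage experiments in general. Neither they nor the labels say how many gave cells to a library, so the p-values below do not measure the spread between animals. Where cells of 1 library are compared, they measure how the ratio varied over 4 libraries from 2 experiments, with spread partly shared across genes, besides counting error. Between efferocytic and non-efferocytic members the spread came from the trend over all genes.

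Gpr34 encodes a G protein-coupled receptor for lysophosphatidylserine, a lipid that is released from phosphatidylserine on activated and dying cells, and it is a familiar marker of microglia and of some tissue macrophages. Hpgd encodes 15-hydroxyprostaglandin dehydrogenase, the enzyme that takes the first step in the breakdown of prostaglandin E2 and its relatives. Fcrls is an Fc receptor-like gene used to mark mouse microglia, and Clec10a encodes a galactose-binding C-type lectin that is found on alternatively activated macrophages and on some dendritic cells. Cd74 (the invariant chain) and the H2 genes make the MHC class II antigen-presenting machinery.

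The genes of the rule were spread unevenly over the libraries. On the genome build GRCm38, Gpr34 lies on chromosome X (13632089 to 13640858, plus strand), Hpgd on chromosome 8 (56294585 to 56321043, plus strand), Fcrls on chromosome 3 (87250758 to 87263738, minus strand) and Clec10a on chromosome 11 (70156197 to 70170834, plus strand). Gpr34 was detected in 18.8, 4.90, 9.98 and 2.51% of all cells and Hpgd in 54.5, 25, 37.3 and 9.81%. Fcrls was seen in 18.5, 7.71, 9.37 and 4.50% and Clec10a in 36.6, 24.1, 31 and 21.7%, and 90.1, 98.6, 88.7 and 97.8% of cells lay under the MHC class II limit. Within the members Hpgd was the most frequent partner in 3 libraries, with 81, 69.2, 73 and 33% of members holding a UMI of it, while Clec10a was present in 60.0, 61.1, 63.6 and 72.8% and Fcrls in 32.7, 24.8, 23 and 19.4%. The efferocytic members of Exp. 2 thus stood apart, since 75 of these 103 cells carried Clec10a and 34 carried Hpgd. Only 272 of all 2335 members held all 3 partners, 966 held 2 and 1097 held 1.

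Membership rested on few molecules. A single Gpr34 UMI was found in 61.4, 72.2, 75.5 and 75.7% of members, and the highest Gpr34 count in 1 cell was 10, 5, 9 and 4. Of the 3437 cells with Gpr34, 576 were left out for want of a partner, 482 for MHC class II and 44 for both. The summed level of Gpr34 was 128, 71.8, 112 and 64.3 CPM (counts per 1000000 UMIs of the summed cells) in members and 6.64, 1.01, 5.49 and 0.842 CPM in the remaining cells, and that of Hpgd was 288, 112, 183 and 29.7 against 153, 31.9, 95.4 and 9.41 CPM. These gaps are what the rule selects for. At the edge of the MHC class II limit the rule kept 13, 0, 9 and 0 cells with 9 summed UMIs and left out 10, 0, 5 and 0 otherwise fitting cells with 10, whereas 1543 members held none at all.

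As a share of the cells, members made up 14.1% (95% exact binomial interval 13.4 to 14.9%), 3.50% (95% exact binomial interval 3.07 to 3.96%), 6.18% (95% exact binomial interval 5.78 to 6.60%) and 1.23% (95% exact binomial interval 1.00 to 1.48%). These intervals cover counting error only. The shares were not compared between groups, because the rule's own genes set them and because the depth of a cell decides whether a rare message is caught at all. Cells of 1000 to 5000 UMIs were members in 5.46, 0.735, 1.44 and 0% of cases and cells of 10000 to 20000 UMIs in 16.3, 4.42, 7.22 and 1.34%. With every cell of at least 5000 UMIs thinned at random to 5000 UMIs, the rule kept 7.81, 1.04, 3.74 and 0.278% of cells, leaving out 1099, 544, 3404 and 505 shallower ones. Free RNA was gauged in cells passing a neutrophil-lineage gate (at least 2 UMIs each of at least 3 neutrophil markers), a cell type not known for Gpr34. Gpr34 was seen in 9 of 76, 2 of 25, 2 of 131 and 0 of 25 such cells (11.8, 8.00, 1.53 and 0%), the last of which allows a share of up to 12%, against 18.9, 4.88, 10.1 and 2.51% of cells in neither the neutrophil nor the fibroblast gate. The median depths of the neutrophil-lineage cells were 16165, 17156, 15310 and 19281 UMIs, and those of the cells in neither gate 11106, 17163, 9546 and 17451.5. Barcodes of 10 to 99 UMIs held 12, 5.19, 6.74 and 5.02 CPM of Gpr34, from 43, 12, 11 and 7 UMIs. These levels lay above the 6.64, 1.01, 5.49 and 0.842 CPM of the remaining cells, which the rule depletes of Gpr34. They lay below the 128, 71.8, 112 and 64.3 CPM of members. Hpgd had 75.4, 38.5, 41.7 and 25.1 CPM in these barcodes, against 153, 31.9, 95.4 and 9.41 CPM in the remaining cells. In cells of a fibroblast gate (at least 10 collagen UMIs), with medians of 40536, 40376.5, 21239 and 35310 UMIs, Gpr34 was seen in 7 of 34, 1 of 16, 5 of 60 and 1 of 25 cells (20.6, 6.25, 8.33 and 4.00%), above the share in the cells of neither gate in 3 of 4 libraries. The partners were also seen in neutrophil-lineage cells, Hpgd in 30.3, 12, 26.7 and 0%, Clec10a in 28.9, 4.00, 15.3 and 4.00% and Fcrls in 9.21, 4.00, 3.05 and 0%. Neither gate excluded cells that also held macrophage messages, and no doublet caller was run. In the gated cells, free RNA therefore could not be told apart from a macrophage caught under the same barcode. How many members owe a UMI of the rule to free RNA was not tested.

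**Figure D1:**
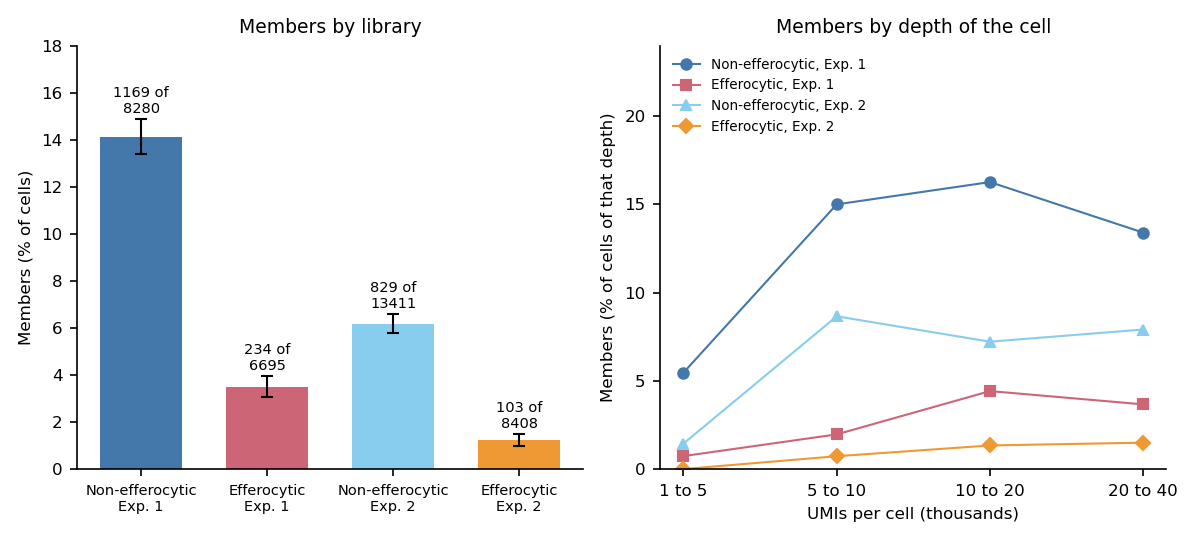
Left, members as a percentage of the cells of each library, with 95% exact binomial intervals as error bars and the counts above the bars. Right, the percentage of members (y axis) among cells grouped by their total UMIs (x axis, in units of 1000); in all 4 libraries the shallowest cells hold the smallest share.

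The members looked like macrophages by markers the rule did not use. Adgre1, which encodes F4/80, was detected in 99.1, 99.1, 98.8 and 100% of members and Csf1r, the M-CSF receptor gene, in 99.6, 99.6, 99.5 and 100%. The summed level of 10 macrophage markers was 29404 to 38359 CPM in members and 22008 to 36645 CPM in the remaining cells. The 6 microglia-type markers summed to 25.8, 11.2, 16.4 and 17.7 CPM in members and 19.5, 7.81, 13.3 and 7.26 CPM in the remaining cells. This sum was higher in members in 4 of 4 libraries, but single markers differed. Cx3cr1 was higher in members in the non-efferocytic library of Exp. 1 alone. In the others it had 0.431, 2.38 and 0 CPM in members against 0.607, 2.69 and 0.274 CPM. Olfml3 was lower in members only in the non-efferocytic library of Exp. 2 (4.36 against 5.83 CPM). Of the 6 markers, P2ry12 (8.13 against 3.77 CPM) and Siglech alone were higher in members there. Sall1 was at 0 in all 4 member sums, and Tmem119 stayed between 0.297 and 2.40 CPM. The 9 dendritic cell markers summed to 402 to 716 CPM in members and 346 to 632 CPM in the remaining cells, nearly all of it Bst2, with Xcr1, Cd209a and Ccr7 at 0 in members. The 11 neutrophil-lineage markers summed to 2124, 1660.2, 754 and 8.15 CPM in members and 3350.3, 962, 3697 and 743 CPM in the remaining cells, so that members lay above the remaining cells in the efferocytic library of Exp. 1, with Retnlg at 0 in all member sums, and 9, 1, 2 and 0 members passed the neutrophil-lineage gate. The 6 fibroblast markers summed to 175, 76.1, 55.5 and 134 CPM in members and 139, 44.9, 125 and 51.2 CPM in the remaining cells, higher in members in 3 of 4 libraries, and 7, 1, 4 and 1 members passed a fibroblast gate of at least 10 collagen UMIs. The 7 monocyte markers summed to 93.6, 75.3, 68.1 and 20.6 CPM in members and 81.9, 31.4, 92.5 and 19.1 CPM in the remaining cells, with the widest gap in the efferocytic library of Exp. 1. The 6 osteoclast markers summed to 44.2 to 110.4 CPM in members and 93.1 to 124 CPM in the remaining cells. Markers of T or NK cells, mast cells, megakaryocytes or erythroid cells and epithelium did not exceed 1.91 CPM in any member sum.

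The files held 117155896, 142894986, 178218821 and 173577602 UMIs, of which the members gave 15177811, 4637393, 10088091 and 2084737. Members were slightly deeper than the other cells, with median UMIs of 11721, 17831, 10649 and 18936 against 11034, 17156, 9476.5 and 17440, and they expressed a similar number of genes at equal depth, 1806, 1755, 1786 and 1801 against 1785, 1762, 1774 and 1822 at 5000 UMIs. Mitochondrial UMIs averaged 3.48, 2.97, 3.30 and 3.53% in members and 3.25, 3.08, 2.97 and 3.46% in the remaining cells. Each pair of libraries shared 14 to 118 cell barcodes, the 118 in Exp. 2, and no shared barcode was a member in both libraries.

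To describe what else distinguished the members, UMIs were summed over the members and over the remaining cells of each library and compared within libraries (4 pairs of sums, edgeR's quasi-likelihood test, Benjamini-Hochberg adjusted p under 0.05 over all genes tested). Of the gene lists described below, 13 of 25 genes of resident-type and alternatively activated macrophages were higher in members. In turn, 16 of 24 lipid-associated and 20 of 35 hypoxia and glycolysis genes were lower. Of 12602 genes outside the rule, 1101 were higher in members (8.74%) and 1438 were lower (11.4%), or 20.1% in either direction. The genes were read in the same cells as the gate, so these counts list what accompanied Gpr34 and its partners and are no independent evidence of a separate population. Without the non-efferocytic library of Exp. 1 the test called 1622 genes in place of 2539. Scaled to UMIs per cell instead of to each sum's composition, the median gene shifted by 0.16 on the log2 scale and the split became 3311 higher and 523 lower, so directions below are relative to the average gene.

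Among the genes higher in members, Selenop, which encodes the selenium carrier selenoprotein P, stood out by its level. It had 4504, 2909, 4159 and 1912 CPM in members and 2809, 1442, 2488 and 860.4 CPM in the remaining cells, a mean log2 ratio of 0.90 ± 0.22 (SD, n = 4 libraries; adjusted p = 9.4e-07). Its level was higher in members in every library, although both efferocytic member sums lay below both non-efferocytic ones. Ccdc152 followed it with a fitted log2 fold change of 0.85, but the 2 genes overlap on opposite strands of chromosome 15 (Selenop 3268547 to 3280508, Ccdc152 3280070 to 3303526), so its reads are uncertain. Rnase4, a secreted ribonuclease gene, had 192, 145, 145 and 153 CPM against 109.6, 83.7, 81.1 and 75.6 CPM, with a log2 ratio of 0.86 ± 0.10 (SD, n = 4). Cd28, best known as the costimulatory receptor of T cells, had 71, 80.9, 63.8 and 83.5 CPM against 41.9, 47.7, 33.3 and 43.1 CPM, and this ratio varied little between libraries (0.85 ± 0.11, SD, n = 4), with T cell markers near 0 as given above. Rasgrp3, an activator of Ras and Rap, and Rapsn, a gene known from the muscle synapse, were similarly even, with log2 ratios of 0.91 ± 0.09 and 0.87 ± 0.12 (SD, n = 4).

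The largest increase among genes averaging at least 10 CPM was that of Ctla2b, a gene for a cysteine protease inhibitor with a near-identical neighbour, with 30.6, 14.2, 19.7 and 12.5 CPM in members and 14.7, 6.46, 9.81 and 3.86 CPM elsewhere (log2 fold change 1.10, adjusted p = 8.4e-06). F13a1, the gene of the coagulation factor XIII A chain, had 31.2, 32.8, 14.7 and 7.67 CPM against 20.1, 10.4, 8.46 and 2.68 CPM. It is also 1 of the 7 monocyte markers summed above, and the efferocytic members of Exp. 2 held 16 UMIs of it. Ighm, the immunoglobulin mu heavy chain gene, had 170.0, 56.3, 142 and 40.8 CPM against 97.5, 19.4, 92 and 15 CPM. Cd79a, which defines B cells, had 0 UMIs in all members, while Cd79b, another B cell marker, was also higher, with 4.41, 8.41, 6.74 and 5.28 CPM against 4.09, 2.78, 3.97 and 2.34 CPM. For both F13a1 and Ighm the gap between members and remaining cells was wider in the 2 efferocytic libraries than in the 2 non-efferocytic ones (edgeR interaction, adjusted p = 0.0054 and 2.8e-05). The remaining cells of the efferocytic libraries also held less Gpr34 and Hpgd, as given above. Ednrb (an endothelin receptor), Plxdc2 and Ms4a6b completed the 12 largest increases, with log2 fold changes of 0.83, 0.90 and 0.79. Only genes higher in members in all 4 libraries could enter these 12, so that sign is no result.

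On the other side, Mmp12, which encodes macrophage elastase, fell furthest among genes averaging at least 10 CPM, with 48.6, 231, 141 and 48 CPM in members and 386, 456, 425 and 463 CPM in the remaining cells (log2 ratio -2.21 ± 1.10, SD, n = 4; adjusted p = 2.1e-04). Its level in the remaining cells was nearly the same in all libraries, whereas among members the efferocytic library of Exp. 1 kept the most. Cdkn1c, a cyclin-dependent kinase inhibitor gene, had 4.74, 12.3, 6.15 and 7.67 CPM against 13.1, 46.6, 12.1 and 65.9 CPM, and Plpp3, a phosphatase of lysophospholipids, had 1.58, 9.49, 5.75 and 8.63 CPM against 6.52, 21.8, 10.2 and 40.1 CPM. Npy, the neuropeptide Y gene, had 15, 62.5, 31.8 and 126 CPM against 43.5, 151, 65.6 and 269 CPM, and the ratio was even (-1.24 ± 0.22, SD, n = 4). Atp6v0d2, a subunit of the vacuolar proton pump, had 75.8, 169.9, 123 and 130.5 CPM against 224, 325, 248 and 312 CPM. The integrin genes Itgax and Itgb7, the chemokine receptor gene Ccr1, the syndecan gene Sdc1, the protein C receptor gene Procr, Ifrd1 and the urokinase receptor gene Plaur were also among the 12 largest decreases, with log2 fold changes between -1.65 and -1.06. Only genes lower in members in all 4 libraries could enter these 12.

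**Figure D2:**
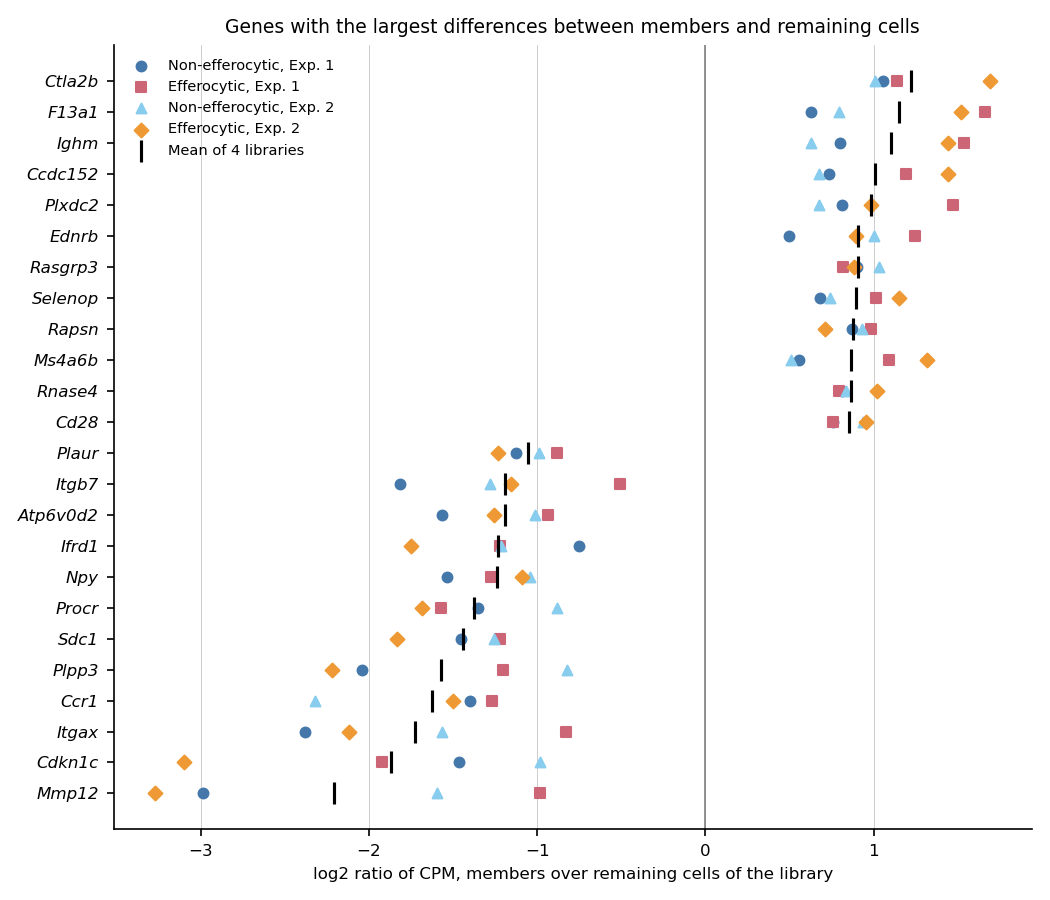
Log2 ratio of CPM in members over remaining cells (x axis) for the 24 genes outside the rule with the largest called differences (y axis), 1 marker per library and a black bar for the mean of 4 libraries. The genes were selected for the same sign in all 4 libraries, so the 12 upper genes lie right of 0 and the 12 lower genes left of 0. The spread is widest for Mmp12 and Cdkn1c.

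Gene lists regrouped the same fold changes, with some of the genes named above among them, so they are no separate evidence. Medians are of log2 fold changes, and the median over all genes tested was -0.01. In the list of resident-type and alternatively activated macrophages, 13 of 25 tested genes were higher in members and 2 were lower, with a median of 0.43. It included F13a1 and Ednrb above, although F13a1 was also counted among the monocyte markers. Mrc1, the mannose receptor gene, had 477, 308, 419.8 and 411 CPM against 297, 218, 251 and 282 CPM. Cbr2, a carbonyl reductase gene of the list, had a log2 fold change of 0.79. Mrc1 and Cbr2 were picked after their values were seen. Of the 2 lower genes, Ear2 rested on almost no molecules, with 0.198, 0.216, 0 and 0 CPM in members and 0.744, 0.690, 0.811 and 0.353 CPM elsewhere. In the microglia-type and homeostatic list, 10 of 23 genes were higher and 3 lower, with a median of 0.20. P2ry12, the ADP receptor gene that marks microglia, had 8.17, 3.88, 8.13 and 12 CPM against 4.43, 2.58, 3.77 and 4.39 CPM (log2 fold change 0.99, adjusted p = 4.2e-04), and its neighbour P2ry13 had 2.37, 3.67, 3.77 and 6.72 CPM against 1.71, 1.26, 1.33 and 2.41 CPM. Both were higher in members in 4 of 4 libraries, although their levels were those of rare messages. Among C-type lectins and Fc receptors, 12 of 20 genes were higher and 2 lower (median 0.16). Fcgrt, the gene of the neonatal Fc receptor, had 246, 126, 203 and 75.3 CPM against 162, 72.5, 134 and 40.5 CPM, and Mgl2, the close relative of Clec10a, had 4.48, 2.37, 4.46 and 0.959 CPM against 2.75, 0.557, 2.85 and 0.444 CPM, so reads shared between these 2 lectin genes were not resolved.

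The pathways of the 2 name-giving genes were examined next. Of the genes for lysophosphatidylserine and purine signalling, 9 of 22 were higher in members and 1 was lower, with a median of 0.16. Abhd6, which encodes a lipase of the endocannabinoid and lysophospholipid pathways, rose most (log2 fold change 1.17), but its level was only 3.03, 1.94, 2.58 and 0.480 CPM against 1.42, 0.698, 1.14 and 0.313 CPM and its call was lost without the non-efferocytic library of Exp. 1, with a log2 fold change then of 1.23. P2rx7, the ATP-gated channel gene, had 64.4, 41.4, 63.3 and 34.5 CPM against 50.2, 30.8, 50.0 and 28.4 CPM. P2ry6, the UDP receptor gene, had 220.1, 147, 189 and 142 CPM against 182, 109.7, 160.4 and 104 CPM, and Entpd1, the ectonucleotidase CD39, had 107, 58, 109 and 73.9 CPM against 86.7, 47.7, 80.6 and 57.2 CPM. S1pr1, a sphingosine-1-phosphate receptor gene, rose by 0.30, and Gpr65 and Lpar6 by 0.20 and 0.21. Of the genes of the 2 pathways with at least 10 CPM, 9 did not pass the test, with log2 fold changes between -0.27 and 0.23. Abhd12 and Abhd16a, which break down and make lysophosphatidylserine, were 2 of these, with 295, 279, 254 and 266 CPM against 265, 290.1, 238 and 260.3 CPM for Abhd12.

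Prostaglandin and leukotriene genes did not move one way, with 6 of 21 higher, 5 lower and a median of 0.01. Scaled per cell, 7 were higher and 3 lower (median 0.18), and with every cell thinned to 5000 UMIs 5 of 18 were higher and 2 lower (median -0.07). Ltc4s, the leukotriene C4 synthase gene, rose most evenly, with 49.5, 36, 40.9 and 23 CPM in members and 30.0, 21.5, 26.8 and 14.1 CPM in the remaining cells (log2 ratio 0.70 ± 0.06, SD, n = 4). Hpgds, which makes prostaglandin D2, had 169, 235, 177 and 230.2 CPM against 139.8, 194, 129 and 192 CPM, and Alox5ap, the 5-lipoxygenase activating protein gene, had 755, 744, 853 and 846 CPM against 694, 632, 761 and 666 CPM. Tbxas1 (thromboxane synthase) and Ptgr2 (a prostaglandin reductase) rose by 0.24 and 0.25 on the log2 scale. Ptgr1, the reductase that also inactivates leukotriene B4, was lower, with 42.1, 61.9, 49.1 and 84.9 CPM against 61.7, 86.8, 65.1 and 99.9 CPM. The prostacyclin receptor gene Ptgir, the prostaglandin E2 receptor gene Ptger2 and the co-chaperone gene Ptges3 had log2 fold changes of -0.82, -0.31 and -0.24. Ptgs2, the inducible cyclooxygenase gene, was called lower but lay under 1 CPM in every sum.

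The lipid, glycolysis and iron lists held more lower than higher genes in members. In the lipid-associated list, 16 of 24 genes were lower and 3 higher (median -0.24), or 10 and 6 scaled per cell (median -0.07). Fabp4, a fatty acid-binding protein gene, had 103, 596, 141 and 307 CPM in members against 228, 799, 284 and 566 CPM, and Ctsk, the cathepsin K gene, had 22.3, 83, 39.3 and 36.5 CPM against 58, 79.8, 77.6 and 100.3 CPM, with members of the efferocytic library of Exp. 1 level with the remaining cells. In the hypoxia and glycolysis list, 20 of 35 were lower and 2 higher (median -0.30), or 12 and 4 scaled per cell (median -0.14), among them the lipid droplet gene Hilpda with 11.3, 17.9, 12.4 and 13.9 CPM against 17.4, 41.8, 20.7 and 41.5 CPM. Of the genes for iron handling and oxidative defence, 12 of 22 were lower and 1 was higher (median -0.22), which scaling per cell turned to 9 lower and 6 higher (median -0.05). Txnrd1, the thioredoxin reductase gene, had 112, 102, 140.5 and 119 CPM against 194, 169.9, 199.5 and 207 CPM, and Slc7a11, the cystine transporter gene, had a log2 fold change of -1.10. The 28 genes of the interferon response gave 4 higher and none lower (median 0.11), or 18 higher and none lower scaled per cell (median 0.28), and the largest of the 4 was Ifi203 with 93.5, 74.6, 78.2 and 57.6 CPM against 77.4, 49.7, 59.2 and 35.4 CPM. In the monocyte list 2 of 24 were higher and 6 lower (median -0.17), with F10, the coagulation factor X gene, at 5.27, 7.33, 5.15 and 1.92 CPM against 15.6, 12.8, 15.6 and 7.42 CPM.

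Engulfment, complement, chemokine and transcription factor genes were mixed, with a split that depended on the scaling. For the efferocytosis receptors and bridging molecules 7 of 25 were higher and 3 lower (median 0.07), or 15 and 2 scaled per cell (median 0.24). Stab1, a scavenger receptor gene for phosphatidylserine, had 871, 479, 731 and 452 CPM in members against 582, 291, 442 and 257 CPM, and Mfge8, the bridging protein gene, had 60.8, 91.4, 79.5 and 88.7 CPM against 113, 178, 134 and 172 CPM. These 2 genes of one function thus moved in opposite directions, each in 4 of 4 libraries. The complement list gave 6 higher and 4 lower of 19, among them the integrin gene Itgb2 with a log2 fold change of -0.46, and inflammatory cytokines and chemokines gave 6 and 6 of 27. The medians of these 2 lists were -0.07 and -0.04, and scaling per cell turned them to 0.10 and 0.13. Ccl5 was the lowest of these, with 3.49, 0.216, 2.68 and 0 CPM against 8.37, 3.04, 39.3 and 6.52 CPM, most of it in the non-efferocytic libraries. Of 34 macrophage transcription factors 9 were higher and 8 lower (median 0.05), or 18 and 6 scaled per cell (median 0.20), the lowest being Egr2 (-1.03) and Bhlhe40 (-0.99).

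**Figure D3:**
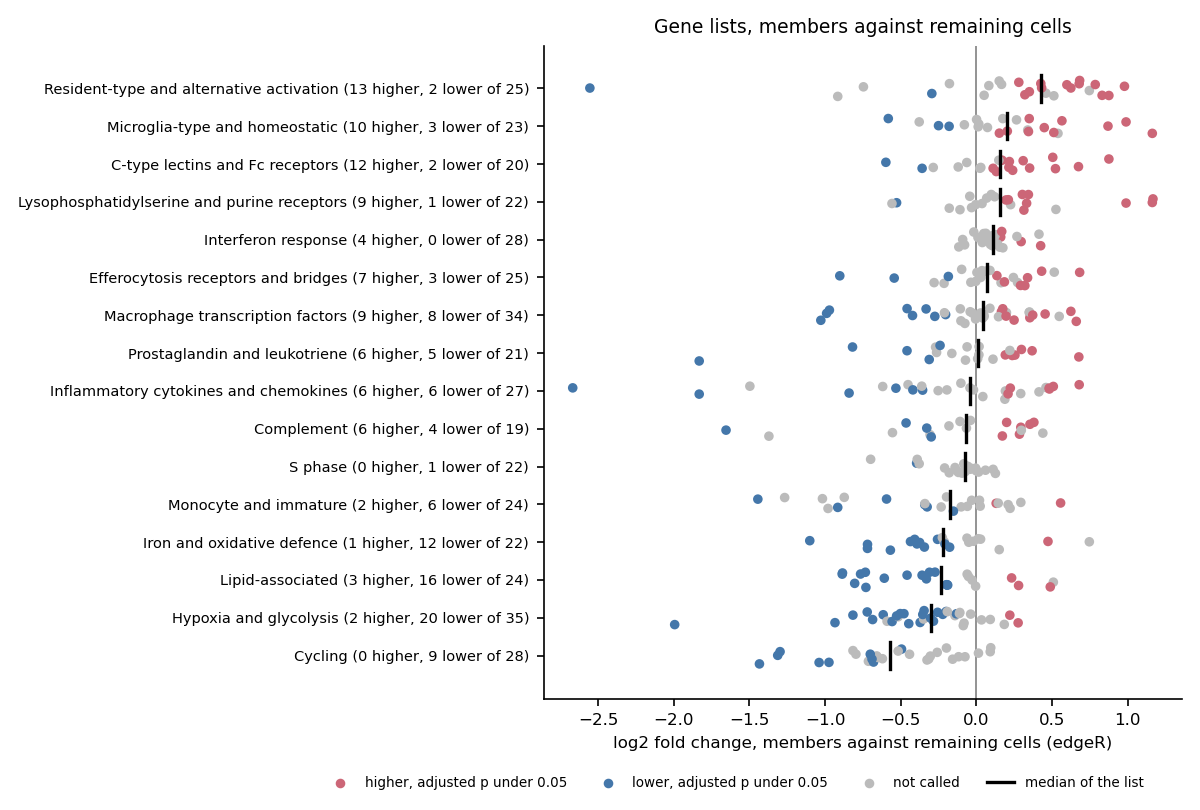
Log2 fold change between members and remaining cells (x axis, edgeR) for the tested genes of 16 lists (y axis), 1 point per gene, coloured where the adjusted p was under 0.05, with a black bar at the list's median. The resident-type list lies furthest right (median 0.43) and the cycling list furthest left (median -0.57).

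The cycling list needed a second measure. By summed UMIs, none of its 28 genes was higher in members and 9 were lower (median -0.57), including Hmmr at 2.96, 1.51, 3.77 and 9.59 CPM against 11.1, 5.76, 9.76 and 8.66 CPM and Cdc20 at 2.77, 1.94, 1.69 and 9.59 CPM against 8.33, 5.23, 6.39 and 7.05 CPM. In the efferocytic library of Exp. 2 both genes were somewhat higher in members. Of 22 S phase genes 1 was lower, the replication clamp gene Pcna (-0.40), and their median of -0.08 became 0.09 when scaled per cell. With every cell thinned to 5000 UMIs before summing, 16 of the 28 cycling genes (median -0.77) and 3 of the 22 S phase genes (median -0.17) were lower and none was higher. DESeq2 on the unthinned sums called 4 of the 28 cycling genes lower and none higher (median -0.39). By cells, the share with at least 3 UMIs of the cycling list at 5000 UMIs was 14.2, 6.96, 17.8 and 13.6% of members and 16.3, 8.33, 17.4 and 11.3% of the remaining cells. The mean difference of -0.20 percentage points was far within its SD of 1.98 (exact sign-flip permutation test over 4 libraries, two-sided, p = 1). Without thinning the shares were 50.8, 53.4, 52.7 and 64.1% of members against 42.2, 45.1, 37.4 and 48.7%, a mean difference of 11.9 points, and at a threshold of 2 UMIs the difference was 4.51 points. Both had the opposite sign to the first value (exact permutation p = 0.13 for each, rounded, which is the smallest that 4 pairs can give).

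Beyond the yes or no of the rule, levels were read by the number of the 4 genes Gpr34, Hpgd, Fcrls and Clec10a caught in a cell. This was described, without a test, in cells of 10000 to 20000 UMIs with low MHC class II, for genes picked after their values were seen. In the non-efferocytic library of Exp. 1, Selenop had 1499, 2895, 4031 and 4605 CPM in cells with 0, 1, 2 and 3 of the genes, and in that of Exp. 2 it had 1482, 2549.5, 3661 and 4329 CPM. Mmp12 went the other way, with 742, 171, 51.6 and 14.3 CPM and 648, 249.9, 87.9 and 60.8 CPM. Stab1 had 299, 435, 544 and 618 CPM in the efferocytic library of Exp. 1 and 305, 403, 496 and 525 CPM in that of Exp. 2, where only 20 cells held 3 of the genes. Actb, the beta-actin gene, changed less in proportion to its level, from 8251 to 6615 CPM in the first library. Not every gene kept a steady order, since in the efferocytic libraries Mrc1 had 319, 387, 422 and 344 CPM in Exp. 2 and F13a1 17, 13.3, 27 and 22.4 CPM in Exp. 1.

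**Figure D4:**
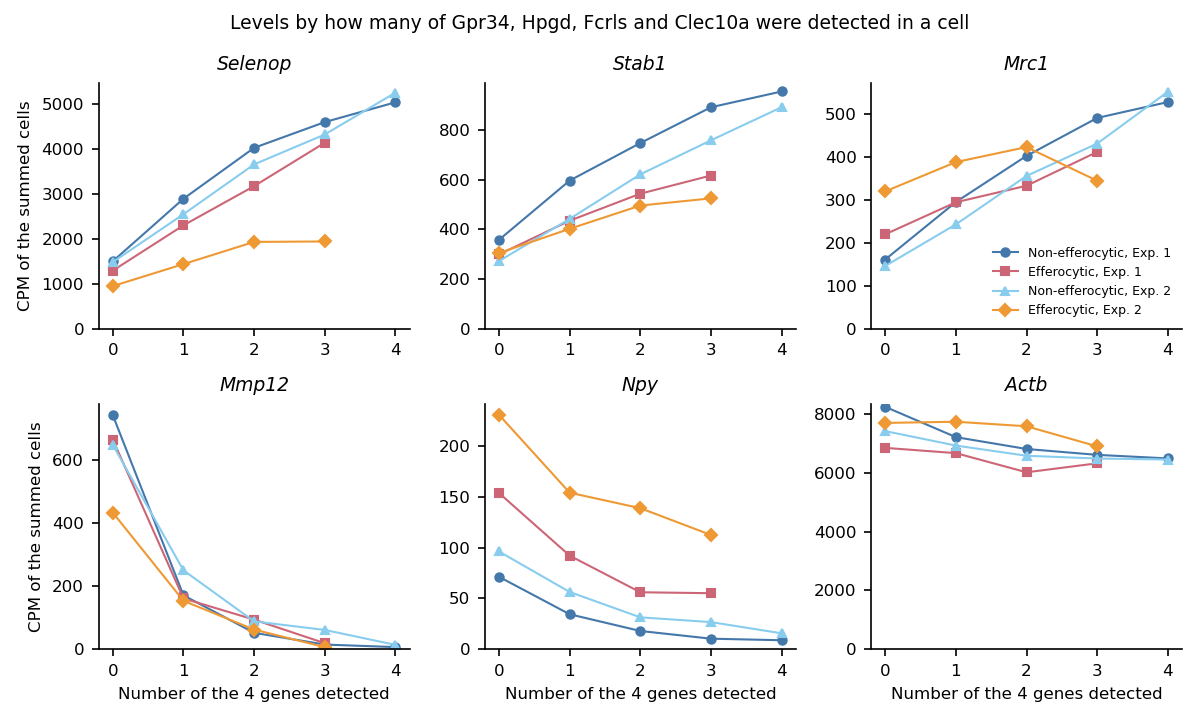
Summed CPM (y axis) of 6 genes in MHC class II-low cells of 10000 to 20000 UMIs by the number of Gpr34, Hpgd, Fcrls and Clec10a detected in the cell (x axis), for groups of at least 20 cells, 1 line per library. Selenop and Stab1 rise from 0 to 3 genes in all 4 libraries, Mmp12 and Npy fall, and Actb moves less than any of these in proportion to its level.

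The second comparison was between efferocytic and non-efferocytic members, which asks whether cells that meet the rule differ with engulfment. It rests on 1 sum per library and 2 experiments, with 234 and 103 efferocytic members. The sorted efferocytic cells held material of RM1, itself a mouse line. How far engulfed RM1 messages entered the efferocytic sums, of members or of remaining cells, was not tested. Of 10583 genes tested outside the rule, 940 were higher in efferocytic members (8.88%) and 851 lower (8.04%), or 16.9% in all. With 1 residual degree of freedom the test took its spread from the trend over all genes rather than from each gene, and DESeq2 on the same sums called 360 (220 higher and 140 lower). Leaving out 1 library left 178 calls without the non-efferocytic library of Exp. 1, 194 without the efferocytic one of Exp. 2, 498 without the non-efferocytic one of Exp. 2 and 719 without the efferocytic one of Exp. 1. Efferocytic members also held more UMIs per cell, so scaled per cell the median gene was 0.61 higher (log2) and the split became 5847 higher and 117 lower. Of the 53 called genes that were selected for naming, 33 lost their call without the efferocytic library of Exp. 2, 27 without the non-efferocytic one of Exp. 1 (Dusp1 and Fos among them turned sign), 18 without the efferocytic one of Exp. 1 (Arg1 and Itgax among them turned sign) and 12 without the non-efferocytic one of Exp. 2. The fits with 1 library left out also lacked the experiment as a block, so these losses and turns mix the missing library with the lost pairing. With every library kept, dropping the block alone lost 18 of the 53 calls. The values per library or experiment are therefore given, relative to the total of each sum.

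Many genes of the lipid-associated and the hypoxia and glycolysis lists were higher in efferocytic members. Cd36, the fatty acid and apoptotic cell receptor gene, had 295, 874, 414 and 1310.0 CPM in members, a log2 ratio of 1.56 in Exp. 1 and 1.66 in Exp. 2, and the remaining cells gave 1.53 in Exp. 1 and 1.56 in Exp. 2. Fabp4 had log2 ratios of 2.54 in Exp. 1 and 1.13 in Exp. 2, and DESeq2 did not call it. Npy rose by 2.06 in Exp. 1 and 1.99 in Exp. 2, starting from the low level that members have of it, and Qpct, the glutaminyl cyclase gene, by 2.29 in Exp. 1 and 1.98 in Exp. 2. Cd300lf, a lipid-binding CD300 receptor gene, had 4.08, 17.5, 6.34 and 22.1 CPM in members, and Plau, the urokinase gene, had 5.60, 17.3, 5.35 and 21.6 CPM. For these 6 genes every efferocytic member sum lay above both non-efferocytic ones. Of the lipid-associated list 16 of 24 genes rose and 3 fell in efferocytic members (median 0.58), and of the hypoxia and glycolysis list 19 of 33 rose and 4 fell (median 0.71), against a median over all genes of -0.02. By DESeq2, 11 lipid-associated genes rose and 2 fell, and with every cell thinned to 5000 UMIs 11 rose and 1 fell. In the hypoxia and glycolysis list 12 rose and none fell by DESeq2, and thinned 11 of 29 rose and 1 fell. Ankrd37 and Egln3, targets of hypoxia-inducible factors, had the largest changes of that list, with 1.05, 11, 0.793 and 1.92 CPM and 0.132, 2.80, 0.0991 and 2.40 CPM in members. They rested on few molecules, since Egln3 had 2, 13, 1 and 5 UMIs in the member sums and Ankrd37 had 16, 51, 8 and 4.

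Thbs1, Ier3 and Nfkbiz were among the genes lower in efferocytic members. Thbs1, the thrombospondin-1 gene, had 113, 9.49, 71.8 and 4.32 CPM, log2 ratios of -3.58 in Exp. 1 and -4.06 in Exp. 2. Ier3, an early response gene, had 197, 31.3, 66.5 and 18.2 CPM, and Nfkbiz, a nuclear regulator of NF-kB targets, had 41.9, 8.19, 13.1 and 5.28 CPM. Dusp1, a phosphatase gene of the same early response, had 359.7, 66.2, 27.2 and 9.11 CPM, and its fitted log2 fold change of -2.21 became 0.63 without the non-efferocytic library of Exp. 1, as that of Fos, of the AP-1 factor, went from -1.70 to 0.0079. Both genes were far higher in Exp. 1 than in Exp. 2, and within each experiment they were lower in efferocytic members. Tmem176b and Tmem176a, overlapping neighbours that encode ion channel-like membrane proteins, had 95.9, 20.1, 72.5 and 15.8 CPM and 51.1, 14.4, 45.3 and 6.72 CPM, but 1 cell gave 46.3% of the 67 UMIs of Tmem176a in efferocytic members of Exp. 1 and 64.3% of the 14 in those of Exp. 2. Fxyd2, a regulator of the sodium pump, had 209, 67.3, 168 and 26.9 CPM, and Gprc5c, an orphan receptor gene, had 18.8, 5.18, 19.7 and 2.40 CPM. Acta2, the smooth muscle actin gene, had 74, 8.41, 43.6 and 19.7 CPM, but 1 cell gave 87.8% of its UMIs in efferocytic members of Exp. 2 and 61.5% in those of Exp. 1, against 44% and 32.5% in non-efferocytic members. Prtn3, a granule protease gene of the neutrophil lineage, had 29.4, 2.37, 7.63 and 0.959 CPM and its log2 fold change went from -3.46 to -0.15 when neutrophil- and fibroblast-gated cells were left out. Of the 11 neutrophil-lineage markers, 7 including Prtn3 were lower in efferocytic members, with summed levels of 2124, 1660.2, 754 and 8.15 CPM. With neutrophil- and fibroblast-gated cells left out, 1666 genes were called, among them 1622 of the 1791 (90.6%), and 52 of the 53 genes selected for naming kept their call, the exception being Prtn3. Il1b had 2.83 and 3.97 CPM in non-efferocytic members and no UMI in efferocytic ones, where 3 UMIs would be 0.647 and 1.44 CPM.

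Of the other lists, inflammatory cytokines and chemokines fell in 12 of 22 genes and rose in 3 (median -0.58), and macrophage transcription factors fell in 19 of 34 and rose in 4 (median -0.42). By DESeq2 the first of these lists had 1 gene higher and 1 lower and the other 1 higher and 7 lower, and with every cell thinned to 5000 UMIs they had 1 higher and 4 lower of 19 and 1 higher and 10 lower of 32. The resident-type list fell in 7 of 20 and rose in 3 (median -0.33). Its Ccl24, an eotaxin gene, had 9.29, 1.08, 11.8 and 1.92 CPM, while Arg1 had 0.329, 13.2, 1.98 and 0.959 CPM and rose in Exp. 1 alone, its fitted log2 fold change of 2.92 becoming -0.15 without the efferocytic library of that experiment. A single cell gave 55.7% of the 61 Arg1 UMIs there and 14 of the 20 in non-efferocytic members of Exp. 2. The microglia-type list fell in 6 of 21 and rose in none (median -0.23), with Aif1, the Iba1 gene, at 262, 144, 252 and 99.8 CPM. Among the partners of the name-giving pathways, Ptgs1, the constitutive cyclooxygenase gene, had 14, 3.23, 10.1 and 2.88 CPM and Ptger4, a prostaglandin E2 receptor gene, 12.8, 6.04, 8.13 and 3.84 CPM, both lower in each experiment. Ptgr1 and Hpgds were higher (log2 fold changes 0.70 and 0.46), and Ltc4s was lower (-0.55), which scaling per cell turned to 0.049. None of 20 lysophosphatidylserine and purine genes rose and 5 fell, among them Gpr65 with 94.3, 45.9, 76 and 34.1 CPM and Entpd1 with 107, 58, 109 and 73.9 CPM. P2ry6 was 1 of the 5, with a log2 fold change of -0.46 that scaling per cell turned to 0.17. Of the C-type lectins and Fc receptors 1 of 19 rose and 7 fell (median -0.26), among them Fcgrt (-1.14). Scaled per cell, the medians of the transcription factor, resident-type, microglia-type, lectin and lysophosphatidylserine lists were 0.22, 0.30, 0.41, 0.38 and 0.44, above 0 but below the 0.61 of all genes, and that of the inflammatory list was 0.05. In the same order, the first 5 lists then had 10, 9, 10, 9 and 8 genes higher and 5, 4, 4, 3 and 1 lower. The inflammatory list had 8 higher and 6 lower. Over all genes this scaling gave 5847 higher and 117 lower.

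**Figure D5:**
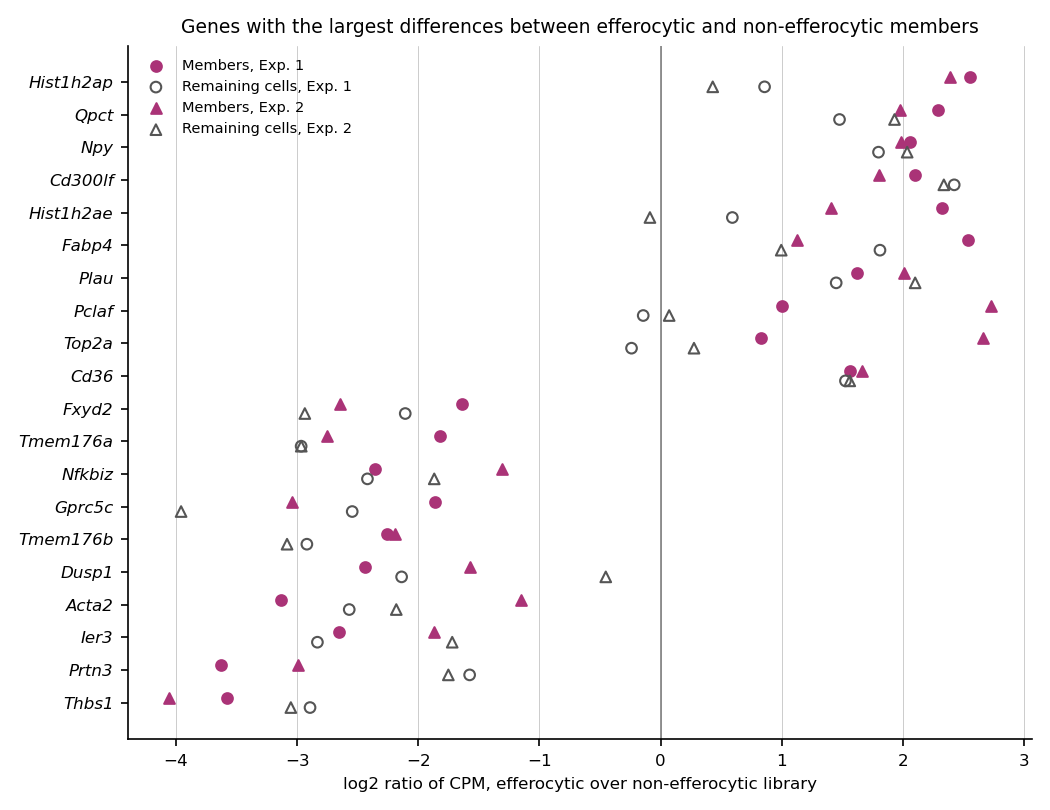
Log2 ratio of CPM in the efferocytic over the non-efferocytic library (x axis) for the 20 genes with the largest called change among members (y axis), filled for members and open for remaining cells, circles for Exp. 1 and triangles for Exp. 2. Thbs1 (-3.58 and -4.06 in members) lies furthest left, and the histone and proliferation genes Hist1h2ap, Hist1h2ae, Pclaf and Top2a lie further right in members than in remaining cells.

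Proliferation genes gave different results by sums and by cells. By summed UMIs, 20 of 28 cycling genes rose and 2 fell in efferocytic members (median 1.04), and 16 of 22 S phase genes rose (median 1.11), while DESeq2 called 3 cycling genes higher and 1 lower and 2 S phase genes higher. Hist1h2ap, a histone gene with near-identical copies, had 22.3, 130.5, 51 and 268 CPM and Top2a, topoisomerase II alpha, had 9.62, 17, 7.43 and 47 CPM. Much of this came from few cells. A single cell gave 34.9% of the Hist1h2ap UMIs among efferocytic members of Exp. 1, and 22 of 103 members held any in Exp. 2. With every cell thinned to 5000 UMIs no cycling gene rose and 1 fell among 20 tested (median 0.23), and none of 17 S phase genes passed the test (median 0.68). In cells of 10000 to 20000 UMIs the log2 fold changes of Hist1h2ap, Hist1h2ae and Top2a turned to -0.74, -0.15 and -1.37. Of these, Hist1h2ap was called in the turned direction (edgeR, adjusted p = 0.033). The share of cycling members at 5000 UMIs, given above, was lower in the efferocytic than in the non-efferocytic library of both experiments, but this order depended on the depth. Thinned to 2000 UMIs the shares were 3.53, 2.56, 3.04 and 7.77%, higher in the efferocytic library of Exp. 2, and without thinning they were higher in the efferocytic library of both experiments.

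Whether the gap between members and remaining cells differed with engulfment was tested as an interaction over the same 8 sums. It called 136 of 13317 genes, 99 with a higher value in efferocytic libraries (0.743%) and 37 with a lower one (0.278%), or 1.02% in all. DESeq2 called 38, and 63 were called without the efferocytic library of Exp. 1 and 17 without that of Exp. 2. Scaling to library totals gave 161 and 22, and scaling per cell 107 and 18. Of the gene lists, cycling had 12 and S phase 6 genes with a higher value, and no other list had more than 3. These counts became 4 and 2 by DESeq2 and 1 and 0 with every cell thinned to 5000 UMIs (edgeR), where the monocyte list had 6, and with library totals the monocyte list had 6 and the microglia-type list 5. Aif1 and Clec4a1, a C-type lectin gene, had interaction values of 0.40 and 0.41, since both fell less in members than in the remaining cells. Apoe, the apolipoprotein E gene, had 20515, 17203, 19880.0 and 11403 CPM in members against 16324, 10851, 15042 and 7238 CPM, a gap that was wider in the efferocytic libraries (interaction 0.23, adjusted p = 8.7e-05). Ccr2, the monocyte chemokine receptor gene, had 20.6, 17.7, 34.3 and 5.28 CPM against 22.3, 4.46, 36.7 and 4.05 CPM, and the wide gap was that of the efferocytic library of Exp. 1. The genes with the largest interaction values often rested on single cells, as set out in the closing section. The cells set against the members also differed, since 50.1, 23.4, 34.9 and 9.52% of the remaining cells held Hpgd and 5.48, 1.45, 4.05 and 1.30% held Gpr34. Against remaining cells with none of Gpr34, Hpgd, Fcrls and Clec10a, 12 of the 29 called genes selected for naming lost their call. How far this difference shaped the interaction was not tested.

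Members were last split by whether Hpgd was caught. A member without Hpgd must by the rule hold Fcrls or Clec10a, so the rule itself shaped these groups, and the values below describe the split and are no evidence of a difference tied to Hpgd. The test of 947, 162, 605 and 34 members with Hpgd against 222, 72, 224 and 69 without it called 18 of 9089 genes (0.198%), 5 higher with Hpgd (0.055%) and 13 lower (0.143%). F13a1 was lower with Hpgd, with 26.2, 21.3, 14 and 2.99 CPM against 55.2, 59.2, 16.8 and 9.88 CPM, and Pla2g7, the gene of the platelet-activating factor hydrolase, had 127, 150.2, 176 and 174 CPM against 165, 209.8, 214 and 253 CPM. Hpse, the heparanase gene, had 99.4, 103, 123 and 83.8 CPM against 162, 121, 157 and 142 CPM, lower in 4 of 4 libraries. Plxdc2 was higher with Hpgd, with 36.9, 26.9, 28.2 and 12 CPM against 22.4, 12.8, 16 and 2.12 CPM, and Cst3, the cystatin C gene, rose by 0.14 on the log2 scale. Acta2 and Tagln, both smooth muscle genes, had log2 fold changes of 1.45 and 1.54, but the value for Acta2 became -0.044 when neutrophil- and fibroblast-gated cells were left out. Spp1, Fabp5, Fth1 and Ftl1 fell by 0.22, 0.22, 0.11 and 0.09. Scaling per cell gave 16 higher and 2 lower, and DESeq2 called 6. Without the efferocytic library of Exp. 1 the test called 8 genes, and without the non-efferocytic one of Exp. 2 it called 10.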

How the data were processed

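The 4 libraries of 10x Genomics 3′ RNA were analysed from the matrices of UMI counts that the authors deposited, made by them with Cell Ranger (3.0.0 per the submitters' processing notes; the file headers give 3.0.0 for Exp. 1 and 3.1.0 for Exp. 2) against mm10, with no normalization. A barcode counted as a cell when it held 1000 UMIs or more from 200 genes or more, no more than 10% of them mitochondrial. No doublet caller was run, and cells over 40000 UMIs were left out in an alternative. Members followed the rule given at the start. The members, gene lists and tests were chosen with earlier results of these data known.

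UMI counts were summed per library over members and over remaining cells and fitted with edgeR 4.0.16 (R 4.3.3; quasi-likelihood test, TMM, filterByExpr), with the library as a block, or the experiment for efferocytic against non-efferocytic members. Each fit was run on simulated counts with the same spread for every gene and no library or experiment effect. That run therefore does not show how reliable the calls are in these data. Calls needed a Benjamini-Hochberg adjusted p under 0.05. Named genes were, among called genes averaging at least 10 CPM, the 12 (members against remaining cells), 10 (efferocytic against non-efferocytic members) or 5 (other tests) with the largest changes each way, with one sign in all libraries or experiments in the first 2 comparisons, besides the 2 called genes furthest from 0 in each list and the prostaglandin and lysophosphatidylserine genes of at least 10 CPM. Others were picked later. The alternatives covered scaling, filters, blocks, DESeq2 1.42.0, depth, other cell types, the rule's limits and each library left out, and scaling per cell was added after seeing the data. The 2 member sums of Exp. 1 deviated together from their group means (r = 0.40 across 7083 genes, which are not independent replicates). With 2 libraries per group, Exp. 2 must give the same value, so it adds no second reading. Positions came from GENCODE vM21. Some marker results are not reported here.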

Additional observations from a re-analysis of the deposited data

Results flagged for a closer look

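For 10 genes the gap between members and remaining cells differed between the efferocytic and the non-efferocytic libraries in a direct test of that difference (edgeR interaction over 8 sums, adjusted p under 0.05), and among the called genes averaging at least 10 CPM these had the 5 largest values in each direction. Values are log2 differences, efferocytic minus non-efferocytic, and for genes with no UMI in a member sum the fitted value is no bound.

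In 5 genes the ratio of members to remaining cells was lower in the efferocytic than in the non-efferocytic library of both experiments. Cdkn1c, the cyclin-dependent kinase inhibitor gene, had 4.74, 12.3, 6.15 and 7.67 CPM in members and 13.1, 46.6, 12.1 and 65.9 CPM in the remaining cells, a difference of -1.10 (adjusted p = 0.018). Gadd45g, a stress-response gene, had 27.4, 14.4, 19.6 and 7.20 CPM in members and 36.1, 32.5, 27.8 and 27 CPM in the remaining cells, a difference of -0.97 (adjusted p = 0.0017). Gm16104, an uncharacterised transcript, had 10.4, 12.3, 12.5 and 13.4 CPM in members and 9.34, 19.2, 12.3 and 26.1 CPM in the remaining cells, a difference of -0.91 (adjusted p = 0.0046). These 3 were below the remaining cells in both efferocytic libraries. Mt2, a metallothionein gene, had 22.5, 16.4, 17.5 and 13.4 CPM in members and 13, 15.3, 12.8 and 17.4 CPM in the remaining cells, a difference of -0.76 (adjusted p = 0.018). Htr2b, a serotonin receptor gene, had 21.8, 18.3, 20.1 and 7.67 CPM in members and 20.6, 24.5, 16.8 and 14.5 CPM in the remaining cells, a difference of -0.74 (adjusted p = 0.021). Gm16104 and Htr2b lay above the remaining cells in both non-efferocytic libraries and below them in both efferocytic ones. In this test DESeq2 called only 3 genes with a lower value, against 37 by edgeR, so it did not call all 5. Without the replicate block, all 29 called genes selected for naming in the interaction lost their call (edgeR).

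The other 5 had positive values, and single cells held much of the signal. For Lcn2, Camp and Wfdc21 members exceeded the remaining cells in the efferocytic library of Exp. 1 alone, and without it the values were -11.48, -13.44 and -9.94. Lcn2, the lipocalin-2 gene of the neutrophil lineage, had 52.4, 83.5, 22.6 and 0 CPM in members and 100, 24.3, 106 and 14.4 CPM in the remaining cells, a difference of 2.67 (adjusted p = 4.2e-05). Among efferocytic members of Exp. 1 all 387 UMIs of Lcn2 lay in 2 cells, 1 of which held 99.7%, and there were none in Exp. 2. Camp, the cathelicidin gene of the same lineage, had 233, 226, 71.8 and 0 CPM in members and 439, 97.8, 405 and 63.9 CPM in the remaining cells, a difference of 1.95 (adjusted p = 0.034). Its 1046 UMIs in efferocytic members of Exp. 1 came from 1 cell. Wfdc21, a whey acidic protein family gene, had 17.1, 16.6, 7.53 and 0 CPM in members and 40.2, 9.93, 40.1 and 5.73 CPM in the remaining cells, a difference of 1.95 (adjusted p = 0.0064). A single cell held 98.7% of its UMIs among efferocytic members of Exp. 1, and none were seen in Exp. 2. Col6a1, a collagen VI gene, had 11.8, 19.8, 6.05 and 18.2 CPM in members and 9.52, 4.28, 10.8 and 5.71 CPM in the remaining cells, a difference of 2.09 (adjusted p = 1.9e-05). A single cell gave 98.9% and 97.4% of its UMIs in efferocytic members of Exp. 1 and Exp. 2. Hist1h2ap, the histone gene, had 22.3, 130.5, 51 and 268 CPM in members and 26.4, 47.9, 59.8 and 80.6 CPM in the remaining cells, a difference of 1.76 (adjusted p = 1.5e-14). Its top cell held 34.9% and 33.2% there. In cells of 10000 to 20000 UMIs its value turned to -0.54 and was not called, and the values of the other 4 genes turned negative too. That of Camp was called in the turned direction.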

How the results depend on the processing

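For members against remaining cells, none of the 65 called genes named changed sign in the alternatives that tested them (62 to 65 of them in each, and 51 under the 10 CPM filter). Their count of 2539 calls became 3834 scaled per cell, 1642 with at least 2 Gpr34 UMIs, 4174 against cells with none of the 4 genes, and 1622 to 2246 with 1 library left out. For efferocytic against non-efferocytic members, 1791 calls became 360 (DESeq2), 979 (library totals), 5964 (per cell), 917 (cells of 10000 to 20000 UMIs), 421 (thinned), 204 (at least 2 Gpr34 UMIs), 780 (at least 2 partners) and 178 to 719 with 1 library left out, where a lone library was assumed to vary like the others. The interaction's 136 became 38 (DESeq2), 275 (no filter), 85 (at most 5% mitochondrial UMIs), 87 (10000 to 20000 UMIs), 43 (thinned), 247 (other cell types left out), 76 (Gpr34), 69 (partners) and 17 to 176. The 18 for Hpgd became 6 (DESeq2), 102 (no filter), 45 (cells over 40000 UMIs left out), 31 (other cell types left out), 2 (Gpr34) and 8 to 18. The cause of these shifts was not tested.

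The replicate block held the library, or the experiment for efferocytic against non-efferocytic members. For that second comparison, the fits with 1 library left out had no block. Without the replicate block 1 gene was called for members against remaining cells (1252 at an unadjusted p under 0.05), 520 for efferocytic against non-efferocytic members, 0 in the interaction (edgeR; 523 at an unadjusted p under 0.05, 38 by DESeq2 with the block) and 0 for Hpgd (edgeR; 143, and 6 by DESeq2 with the block). With only 2 experiments the pairing of efferocytic with non-efferocytic libraries rests on the labels.

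Signs turned as follows, in log2. In efferocytic members, cells of 10000 to 20000 UMIs gave -0.74 for Hist1h2ap, -0.15 for Hist1h2ae and -1.37 for Top2a, scaling per cell gave 0.087 for Blvrb, 0.13 for Slc40a1, 0.049 for Ltc4s and 0.17 for P2ry6, and leaving out 1 library gave -4.41 to 0.63 for Dusp1, -0.15 to 4.61 for Arg1, -0.062 to 1.78 for Itgax and -3.31 to 0.0079 for Fos. In the interaction, cells of 10000 to 20000 UMIs gave -10.52 for Lcn2, -5.48 for Col6a1, -1.86 for Wfdc21, -11.77 for Camp, -0.54 for Hist1h2ap, -0.069 for Sparc, -7.36 for Pbk, -7.50 for Nusap1, -0.16 for Clspn and -0.59 for Rrm2. At least 2 Gpr34 UMIs gave -12.18 for Lcn2, -11.22 for Col6a1, -2.53 for Wfdc21, -13.66 for Camp and -12.85 for Sparc. Without cells over 40000 UMIs the values were -5.50 for Lcn2, -3.91 for Wfdc21 and -13.39 for Camp, without other cell types -8.41 for Camp, and by DESeq2 -0.61 for Lcn2 and -1.96 for Camp. With 1 library left out they ran from -11.48 to 3.37 for Lcn2, -9.94 to 2.69 for Wfdc21 and -13.44 to 2.75 for Camp. For Hpgd, Hist1h2ap became 0.10 in cells of 10000 to 20000 UMIs and 0.59 with at least 2 Gpr34 UMIs, Acta2 -0.044 without other cell types and Ftl1 0.0060 per cell. The difference in cycling share became 4.51 points at 2 UMIs and 11.9 unthinned, and ran from -1.03 to 0.45 with 1 library left out. Some turned values were called in the new direction (edgeR, adjusted p under 0.05). In cells of 10000 to 20000 UMIs these were Hist1h2ap in efferocytic members and Camp in the interaction. The others were interaction values, of Lcn2, Wfdc21 and Camp without cells over 40000 UMIs, and of Lcn2, Col6a1, Camp and Sparc with at least 2 Gpr34 UMIs. Large fitted values belong to genes with no UMI in a sum. The precision is limited by 103 members in the smallest library, where 3 UMIs are 1.44 CPM.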
